A study of Mus musculus with 7 samples.

Results

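The genes described here build and maintain the sarcomere, the contractile unit of striated muscle, without its myosins and troponins. They were 46 listed genes, of which 45 had a completed comparison and a mean of at least 1 FPKM over the pair of day-6 libraries, out of 13407 genes that met the same minimum. FPKM (fragments scaled by transcript length and depth) is a level per length of transcript. The libraries were made from poly-A RNA of the sinoatrial node, the pacemaker region of the right atrium, of Sv129 mice at 3 weeks after birth. All animals carried the floxed Baf250a alleles (Baf250af/f). Baf250a is the product of Arid1a and belongs to BAF, which remodels chromatin. The control library came from mice without Cre, and the Cre library from mice that also carried Hcn4CreERT2, taken 6 days after tamoxifen. Hcn4CreERT2 is a recombinase made in cells that use the Hcn4 gene and activated by tamoxifen, so cells that do not use Hcn4 would keep the floxed alleles. The number of mice behind each library, and whether control mice received tamoxifen, are not in the labels. The other 5 of the 7 libraries (a control and samples at 16, 20, 24 and 48 h) were not analysed here. The question named by the series title is repression by Baf250a of contractile genes that Nkx2-5 directs.

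In a sarcomere, thin filaments of actin, tropomyosin and troponin are anchored end to end at the Z-disc by alpha-actinin. Thick filaments of myosin and myosin binding protein C meet at the M-band, where myomesins link them. Titin spans from the Z-disc to the M-band as a spring and a ruler. Dedicated chaperones fold myosin and protect the Z-disc, and ubiquitin ligases of the MuRF family take part in turnover. Working atrial and ventricular cells hold dense, ordered sarcomeres, while pacemaker cells of the node are known for having few.

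With 1 library per genotype no difference below has a replicate check, no test was possible, and read depth is unknown. Differences are given as log2 ratios of FPKM + 1, Cre over control, which understate differences of weak genes. A difference of at least 2-fold on that scale was the rule for counting genes. The sarcomere genes were mostly higher in the Cre library. Of the 45 measured genes 23 were at least 2-fold higher, 51.1% of them, against a background of 6.08% of all 13407 genes. None was at least 2-fold lower, against 10.4% of all genes. Above equal expression lay 44 of the 45, against 46.0% of all genes. Their median log2 ratio was 1.02 (quartiles 0.77 to 1.36), and that of all genes was -0.07 (quartiles -0.52 to 0.38). All 45 had at least 1 FPKM in both libraries, so none passed the minimum through the Cre library alone. Myot, with 1.07 FPKM without Cre and 1.28 FPKM with Cre, lay just inside the minimum. Neb, with 0.304 and 0.334 FPKM, was the gene outside it.

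Several other gene groups differed between the libraries as well, and their part in these results was not tested. Arid1a had 34.9 FPKM without Cre and 12.3 FPKM with Cre, taken over the whole gene and not over the floxed exons alone. All 19 T cell and thymus markers were at least 2-fold lower, with a summed level of 3501 FPKM without Cre and 16.5 FPKM with Cre, as were all 20 cell cycle markers (1243 and 129.8 FPKM). Of 12 lung and airway markers 11 were higher (4386 and 19370 FPKM summed). Y-linked genes were lower and Xist was higher in the Cre library, so sex and genotype cannot be told apart. Of 11 pacemaker markers 9 reached the minimum, with 50.8 and 88.4 FPKM summed. Hcn4, the defining channel of the node, had 0.605 and 0.719 FPKM, below the minimum in both libraries. Among the node's transcription factors, Isl1 had 1.69 and 2.02 FPKM, Shox2 1.20 and 1.26, Tbx3 0.996 and 2.59, and Tbx18 4.83 and 7.03 FPKM. Smoc2 (17.3 and 25.8 FPKM) and Kcnj5 (15.4 and 32.2 FPKM) were the most abundant markers on that list. The 19 measured cardiomyocyte genes that are not sarcomere genes all lay above equal expression, with a median log2 ratio of 0.79. Of these 6 were at least 2-fold higher (31.6%, against 6.08% of all genes). The 14 fibroblast and the 14 endothelial markers had medians of 0.46 and 0.47. In bulk tissue, more cells of a type and more RNA per cell cannot be told apart.

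Setting the ratios to the median of the fibroblast and endothelial markers left 9 of the 45 sarcomere genes at least 2-fold higher, against 2.17% of all genes, with a median of 0.56. These were Ttn, Nrap, Sorbs2, Xirp1, Fhod3, Flnc, Myom1, Mybpc3 and Actn2. Setting them to the median of the cardiomyocyte genes outside the sarcomere, a choice made after seeing the data, left 2 (Ttn and Nrap), against 0.895% of all genes. The median was then 0.23, with 30 of the 45 above the cardiomyocyte median, and Pdlim1 was at least 2-fold lower. Setting both libraries to the same upper quartile gave 32, against 9.71% of all genes, and moved the median of all genes from -0.07 to 0.13. How many sarcomere genes passed 2-fold thus changed with the reference, and Ttn and Nrap were the members that stayed at least 2-fold higher under all 10 settings tried.

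**Figure D1:**
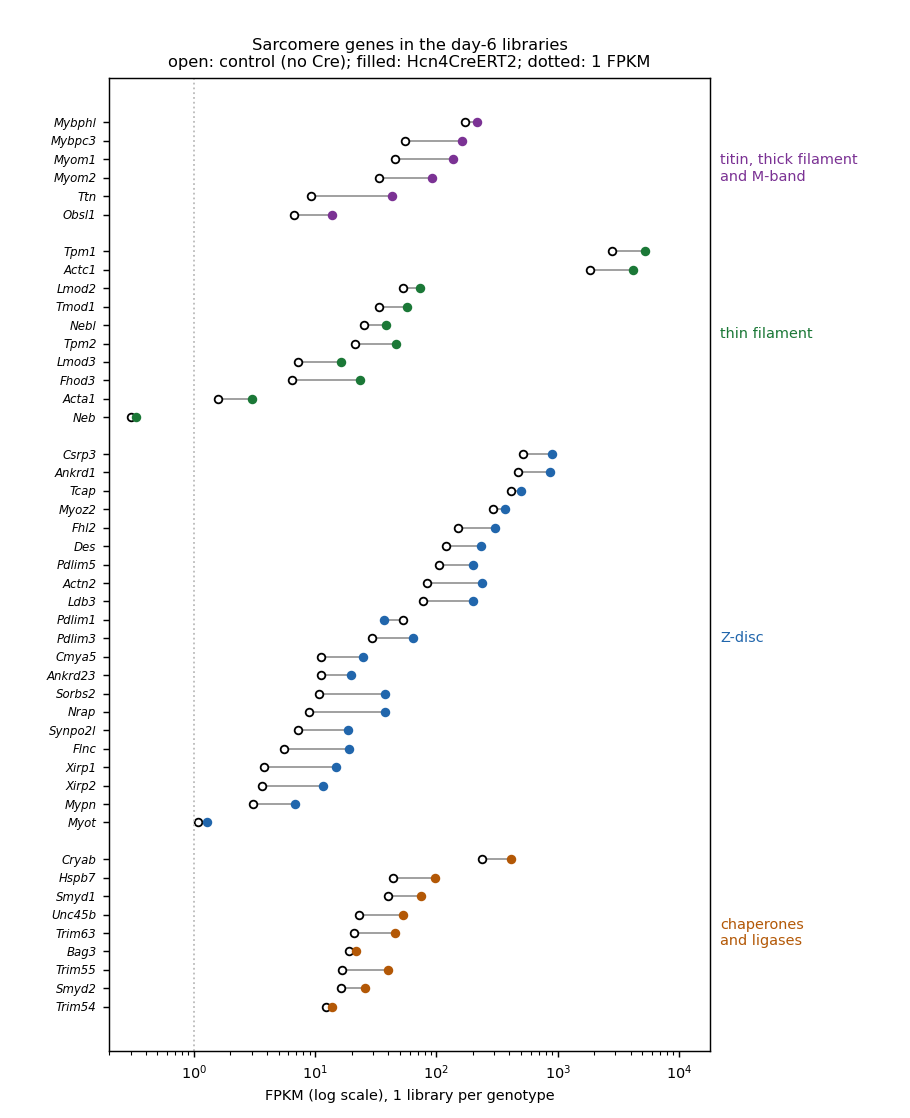
Level of each of the 46 sarcomere genes in the control library (open circles) and the Cre library (filled circles) in FPKM on a log axis, grouped by compartment. Each line joins the 2 values of a gene, with 1 library per genotype and no error. Tpm1 and Actc1 stand above all others, Neb lies left of the 1 FPKM line, and Pdlim1 is the gene whose filled circle lies to the left.

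The promoters of some of these genes carry the binding motifs of muscle transcription factors, and 6 of them are shown because they hold such motifs or, for Pdlim1, because it was the gene on the other side of equal expression. The CArG box is bound by serum response factor, and the MEF2 site by the MEF2 family. M-CAT, with the letters CATTCC, is bound by TEAD factors, and TATAAA holds the letters of a TATA box. Sequences are from RefSeq on GRCm38.p6, 250 bases before to 50 bases after the annotated start, in the direction of the gene. Capitals mark matches to any of the 4 motifs on either strand.
Actc1: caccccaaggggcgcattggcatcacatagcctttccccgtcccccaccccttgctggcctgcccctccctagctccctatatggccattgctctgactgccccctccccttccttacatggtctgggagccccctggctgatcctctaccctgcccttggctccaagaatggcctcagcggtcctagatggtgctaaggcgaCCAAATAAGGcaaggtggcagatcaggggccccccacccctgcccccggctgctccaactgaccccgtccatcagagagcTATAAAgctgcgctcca
Myom1: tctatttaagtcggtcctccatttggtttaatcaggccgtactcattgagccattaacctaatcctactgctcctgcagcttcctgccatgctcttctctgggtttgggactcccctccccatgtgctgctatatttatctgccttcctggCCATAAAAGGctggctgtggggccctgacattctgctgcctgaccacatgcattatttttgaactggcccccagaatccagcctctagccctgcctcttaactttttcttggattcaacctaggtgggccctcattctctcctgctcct
Ttn: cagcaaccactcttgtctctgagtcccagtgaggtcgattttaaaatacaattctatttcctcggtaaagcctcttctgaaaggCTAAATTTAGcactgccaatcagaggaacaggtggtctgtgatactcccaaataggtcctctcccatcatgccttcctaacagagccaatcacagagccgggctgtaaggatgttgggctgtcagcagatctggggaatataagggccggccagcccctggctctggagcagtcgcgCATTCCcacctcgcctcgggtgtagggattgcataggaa
Mybpc3: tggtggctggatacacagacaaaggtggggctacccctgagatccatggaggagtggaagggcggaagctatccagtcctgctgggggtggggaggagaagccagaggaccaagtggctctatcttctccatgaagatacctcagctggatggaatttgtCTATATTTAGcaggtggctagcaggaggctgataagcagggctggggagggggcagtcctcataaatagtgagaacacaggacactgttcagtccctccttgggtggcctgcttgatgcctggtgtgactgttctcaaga
Ankrd1: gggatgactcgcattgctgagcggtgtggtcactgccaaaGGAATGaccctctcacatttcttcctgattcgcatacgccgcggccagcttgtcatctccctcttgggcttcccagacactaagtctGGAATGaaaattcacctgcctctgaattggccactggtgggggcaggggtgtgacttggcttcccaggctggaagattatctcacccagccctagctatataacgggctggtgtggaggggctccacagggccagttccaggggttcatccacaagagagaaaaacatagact
Pdlim1: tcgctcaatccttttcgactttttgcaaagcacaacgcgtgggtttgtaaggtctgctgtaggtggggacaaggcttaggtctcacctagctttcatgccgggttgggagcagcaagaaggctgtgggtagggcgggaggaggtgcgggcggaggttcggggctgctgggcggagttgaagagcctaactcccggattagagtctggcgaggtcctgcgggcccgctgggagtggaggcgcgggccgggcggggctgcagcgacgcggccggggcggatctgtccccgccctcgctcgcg

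The windows lie at chr2:114052826-114053125 (minus strand) for Actc1, chr17:71019307-71019606 (plus strand) for Myom1 and chr2:76982498-76982797 (minus strand) for Ttn. Those of Mybpc3, Ankrd1 and Pdlim1 lie at chr2:91117894-91118193 (plus strand), chr19:36119795-36120094 (minus strand) and chr19:40271567-40271866 (minus strand). Positions are counted from the annotated start, whose first base is 1. In Actc1 the CArG box began at -47 and TATAAA at 34. That TATAAA lies after the annotated start, and whether it serves as a TATA box was not tested. The CArG box of Myom1 began at -99. The MEF2 site began at -166 in Ttn and at -90 in Mybpc3, and Ttn also held CATTCC at 12. Ankrd1 held 2 copies of CATTCC, both on the strand opposite to the gene, and Pdlim1 held none of the 4 motifs. Several genes that were at least 2-fold higher, among them Nrap, Sorbs2, Actn2 and Unc45b, also held none of the 4. Absence of these motifs thus did not set Pdlim1 apart.

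Promoters were matched for 37 of the 46 genes, and 9 of these genes had several annotated starts, which gave 49 windows, some of them overlapping. A CArG box was found in 8 of the 49 windows (16.3%), against 1.63% of all 32851 promoter windows of that length. By gene these were 6 of 37, namely Actc1, Acta1, Myom1, Ldb3, Fhl2 and Nebl. A MEF2 site was found in 7 windows (14.3%, 6 genes), against 3.19% of all, and CATTCC in 15 (30.6%), against 14.7%. TATAAA, in 14.3% of the windows, stood beside 13.6% of all, and the E-box CANNTG, in 75.5%, beside 72.3%. The core of the Nkx2-5 motif, AAGTG, was found in 36.7% of the windows and in 46.4% of all promoters, and the GATA motif AGATAA in 16.3% and 11.2%. Of the 18 matched genes that were at least 2-fold higher, 4 held a CArG box and 5 a MEF2 site. Of the 19 other matched genes, 2 held a CArG box and 1 a MEF2 site. Among 12117 promoters of genes that met the minimum, the shares were lower, at 1.30% for the CArG box, 1.89% for the MEF2 site, 12.5% for CATTCC and 7.53% for TATAAA. They were 64.5% for CANNTG, 42.8% for AAGTG and 6.58% for AGATAA. These matches describe letters in a short window, and motifs can overlap one another. Not matched were Myom2, Lmod3, Fhod3, Neb, Xirp1, Cryab, Myot, Trim55 and Tcap.

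Titin and the proteins of the thick filament and M-band formed the compartment with the highest median, 1.48 over 6 genes. Of these 4 were at least 2-fold higher (66.7%, against 6.08% of all genes) and 0 lower (against 10.4%). Ttn, titin, had 9.31 FPKM without Cre and 43.0 FPKM with Cre, a log2 ratio of 2.09 that ranked 38 from the top among all 13407 genes (mm9 chr2:76542040-76820604). Myom1 and Myom2, the myomesins that crosslink thick filaments at the M-band, were both at least 2-fold higher. Myom1 had 45.2 and 138 FPKM (log2 ratio 1.59), and Myom2 had 33.4 and 91.7 FPKM (1.43). Mybpc3, cardiac myosin binding protein C, had 55.4 and 161 FPKM (1.53). Obsl1, which binds titin and myomesin at the M-band, had 6.63 and 13.9 FPKM and a log2 ratio of 0.96, short of the 2-fold rule. Mybphl, a short relative of myosin binding protein C known from the atrium and conduction system, stood apart from the rest. It had 172 FPKM without Cre and 215 FPKM with Cre, a log2 ratio of 0.32, and was the most abundant gene of the compartment in both. The summed level of the compartment was 322 FPKM without Cre and 662 FPKM with Cre.

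Thin filament genes had a median log2 ratio of 0.91 over 9 measured genes. Of these 4 were at least 2-fold higher (44.4%, against 6.08% of all genes) and 0 lower (against 10.4%). Tpm1, the main striated tropomyosin of the heart, and Actc1, cardiac actin, were the most abundant of all 46 genes. Tpm1 had 2791.5 FPKM without Cre and 5258 FPKM with Cre (log2 ratio 0.91), and Actc1 had 1846 and 4155 FPKM (1.17). Together they made up 58.6% of the summed FPKM of the 46 genes in the control and 61.9% in the Cre library. Their skeletal counterparts were far weaker. Tpm2, a tropomyosin of slow skeletal and smooth muscle, had 21.4 and 46.3 FPKM (1.08), and Acta1, skeletal actin, had 1.57 and 3.00 FPKM (0.64). The coding sequences of Actc1 and Acta1, both 1131 nt long, were identical at 86.3% of positions, with an identical run of up to 29 nt. For Tpm1 and Tpm2 these values were 78.5% and 35 nt. The read length is not given in the sources used here, and the low values of Acta1 and Tpm2 are uncertain because reads can be shared with such an abundant relative.

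The genes that set thin filament length and assembly differed among themselves. Fhod3, a formin needed for actin assembly in heart muscle, had the highest ratio of the compartment, with 6.49 FPKM without Cre and 23.2 FPKM with Cre (1.69). Lmod3, a leiomodin that nucleates actin and is known mainly from skeletal muscle, had 7.22 and 16.3 FPKM (1.08). Its cardiac relative Lmod2, which elongates the pointed end, was more abundant at 52.6 and 73.0 FPKM, but its log2 ratio was 0.46. Lmod2 thus went from 7.28 times the level of Lmod3 in the control to 4.47 times in the Cre library. Tmod1, tropomodulin, which caps that end against elongation, had 33.4 and 57.7 FPKM (0.77). Nebl, the short cardiac nebulin relative at the Z-disc end of the thin filament, had 25.2 and 38.8 FPKM (0.60). Neb itself, the long nebulin of skeletal muscle, was 82.8 times weaker than Nebl in the control and 116 times weaker in the Cre library.

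Z-disc genes had a median log2 ratio of 1.02 over 21 genes. Of these 11 were at least 2-fold higher (52.4%, against 6.08% of all genes) and 0 lower (against 10.4%). The core crosslinker Actn2, sarcomeric alpha-actinin, had 84.1 FPKM without Cre and 238 FPKM with Cre (1.49; mm9 chr13:12361693-12432999). Ldb3, the PDZ-LIM protein ZASP that binds alpha-actinin, had 77.0 and 199 FPKM (1.36). Flnc, the muscle filamin, had 5.51 and 19.1 FPKM (1.63), and Des, the intermediate filament that ties Z-discs together, had 119.99 and 232 FPKM (0.95). Mypn, myopalladin, a link between alpha-actinin and nebulin or nebulette, had 3.06 and 6.78 FPKM (0.94). In contrast, the small and abundant titin cap gene Tcap had 413 and 498 FPKM (0.27), and Myoz2, a calsarcin that holds calcineurin at the Z-disc, had 293 and 368 FPKM (0.33). Both differed by less than 1.5-fold, beside 2.84-fold in FPKM for Actn2. Myot, myotilin, was near the minimum in both libraries, as given above, with a log2 ratio of 0.13.

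Genes of the intercalated disc and of adhesion sites next to the Z-disc included the 3 highest ratios among the Z-disc genes, those of Nrap, Sorbs2 and Xirp1. Nrap, a nebulin-related anchoring protein of myofibril ends and of assembling myofibrils, had 8.90 FPKM without Cre and 37.5 FPKM with Cre (1.96). Its log2 ratio ranked 67 from the top among all genes (mm9 chr19:56362427-56464525). The Xin repeat genes, whose products bind actin at intercalated discs, were both weak and both higher. Xirp1 had 3.81 and 14.7 FPKM (1.71), and Xirp2 had 3.65 and 11.6 FPKM (1.44). Sorbs2, an adaptor of the Z-disc and intercalated disc, had 10.7 and 37.5 FPKM (1.72). Synpo2l, an actin-binding Z-disc protein, had 7.22 and 18.6 FPKM (1.26), and Cmya5, myospryn, a large protein at costameres, had 11.2 and 24.7 FPKM (1.08). The locus of Cmya5 overlaps another annotated gene, as do those of Mybphl, Fhod3 and Tmod1, so reads there can be shared.

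The LIM and ankyrin repeat proteins shuttle between the Z-disc and the nucleus or bind the titin spring. They included the most abundant Z-disc genes, Csrp3 and Ankrd1. Those described here mostly stayed short of 2-fold, but Ldb3, the PDZ-LIM gene given above, passed it with a log2 ratio of 1.36. Csrp3, muscle LIM protein, had 518 and 891 FPKM (0.78). Ankrd1, the cardiac ankyrin repeat protein that is induced by load, had 474 and 865 FPKM (0.87), and its relative Ankrd23 had 11.1 and 19.9 FPKM (0.79). Fhl2, a LIM-only protein of the titin spring, had 149.6 FPKM without Cre and 305 FPKM with Cre and passed the 2-fold rule narrowly, at 1.02. Among the other PDZ-LIM genes Pdlim3 had 29.3 and 64.0 FPKM (1.10) and Pdlim5 had 105 and 199 FPKM (0.91). Pdlim1, a PDZ-LIM protein that many cell types besides muscle make, was the only one of the 45 measured genes below equal expression, at 53.3 FPKM without Cre and 36.7 FPKM with Cre (-0.53; mm9 chr19:40296728-40346106). Pdlim3 thus had 0.549 times the level of Pdlim1 in the control and 1.74 times in the Cre library, and the order of these genes turned.

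Chaperones, methyltransferases and ligases had a median of 0.89 over 9 genes. Of these 4 were at least 2-fold higher (44.4%, against 6.08% of all genes) and 0 lower (against 10.4%). Unc45b, the muscle chaperone that folds the myosin head, had 23.0 FPKM without Cre and 52.7 FPKM with Cre (1.16). Its partner Smyd1, a muscle methyltransferase needed for thick filament assembly, had 39.8 and 74.8 FPKM (0.89), and Smyd2, a more widely expressed relative, had 16.3 and 25.6 FPKM (0.62). Among small heat shock proteins, Hspb7 had 43.9 and 97.4 FPKM (1.13), while Cryab, which protects desmin and titin, was more abundant with 239 and 412 FPKM and had a lower ratio (0.78). Bag3, the cochaperone that clears damaged filamin, had 19.1 and 21.8 FPKM (0.18).

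The 3 MuRF ubiquitin ligases had unequal ratios. Trim55 (MuRF2) had 16.6 FPKM without Cre and 40.2 FPKM with Cre (1.23), and Trim63 (MuRF1), which marks thick filament proteins for degradation, had 20.8 and 45.3 FPKM (1.09). Trim54 (MuRF3) had 12.2 and 13.9 FPKM (0.17), so that Trim63 went from 1.70 to 3.26 times the level of Trim54. Coding sequences of Trim54 and Trim63 were identical at 67.2% of aligned positions with an identical run of up to 28 nt. With the read length not given, whether reads were shared between them is not known.

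**Figure D2:**
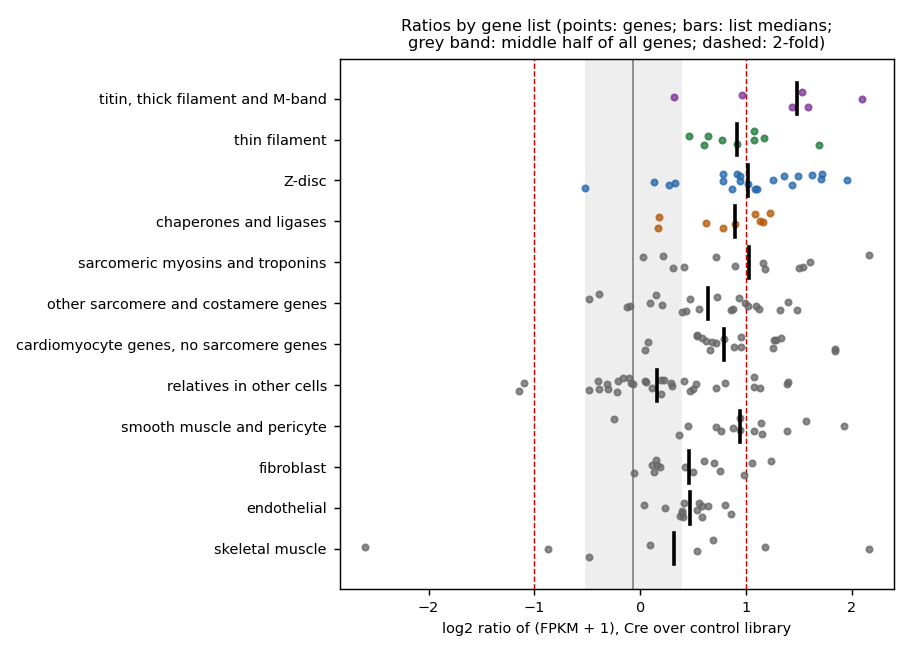
Log2 ratio of FPKM + 1, Cre over control library, for each measured gene (points, spread vertically for sight) by list, with the list's median as a black bar. The 4 coloured rows are the sarcomere compartments, the grey rows are comparison lists, the grey band runs from the lower to the upper quartile of all genes and the dashed lines mark 2-fold. Medians of 0.89 to 1.48 of the 4 compartments stand beside 1.03 for myosins and troponins and 0.79 for other cardiomyocyte genes. Smooth muscle and pericyte markers, Des among them, had a median of 0.94, and relatives in other cells had 0.16.

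The levels of the 46 genes summed to 7921 FPKM without Cre and 15206 FPKM with Cre, 1.59% and 3.13% of all FPKM and a quotient of 1.92. Without Tpm1 and Actc1 the quotient was 1.76. The order of the 45 genes by level was largely kept, with a Spearman correlation of 0.953 between the libraries across genes, which are not independent replicates. In the control 11 genes were above 100 FPKM and in the Cre library 15. In the authors' deposited table none of the 45 genes was called significant, against 0.671% of all genes. The authors' deposited table gave a p-value below 0.05 with a higher Cre value for 8 of them, against 1.49% of all genes, and with a lower one for 0, against 5.15%. In the authors' deposited table these were Nrap, Ttn, Sorbs2, Xirp1, Flnc, Xirp2, Myom1 and Fhod3, and the smallest q-value was 0.367, for Nrap, with a p-value of 0.0117 in the authors' deposited table. That test compares 2 libraries and not the genotypes.

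The ratio of the sarcomere genes varied with the length of their transcripts. Across the 45 genes Spearman's rho between length and log2 ratio was 0.628, as a description, and across all 13350 genes with a length it was 0.03. The 15 genes with the shortest transcripts (846 to 1964 nt) had a median log2 ratio of 0.78 and 4 were at least 2-fold higher. The 15 longest (4163 to 100404 nt) had a median of 1.53 and 12 were at least 2-fold higher. Other genes in the same length ranges had medians of -0.08 and -0.07, with 6.00% and 6.23% at least 2-fold higher. Obsl1, Nebl and Mypn were the 3 long genes that were not, with values given above. Actc1, Fhl2, Pdlim3 and Trim63 were the 4 short genes that were.

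Length and level went together among these genes, with a rho of -0.53 between length and mean FPKM, while the rho of ratio and mean level was -0.14. By compartment the rho of ratio and length was 0.67 for the Z-disc, 0.65 for chaperones and ligases, 0.60 for titin and the M-band and 0.05 for the thin filament. Across 12 sarcomeric myosins and troponins it was 0.17, and across 22 further sarcomere and costamere genes 0.37. It was 0.59 across 19 cardiomyocyte genes outside the sarcomere and 0.66 across 14 fibroblast markers. Across 14 smooth muscle and pericyte markers it was 0.25, across 14 endothelial markers 0.20 and across 19 T cell and thymus markers 0.05. It was 0.10 across 32 relatives in other cells and -0.41 across 12 lung and airway markers. RNA integrity was not measured in the files, and the part of length in these ratios was not tested.

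**Figure D3:**
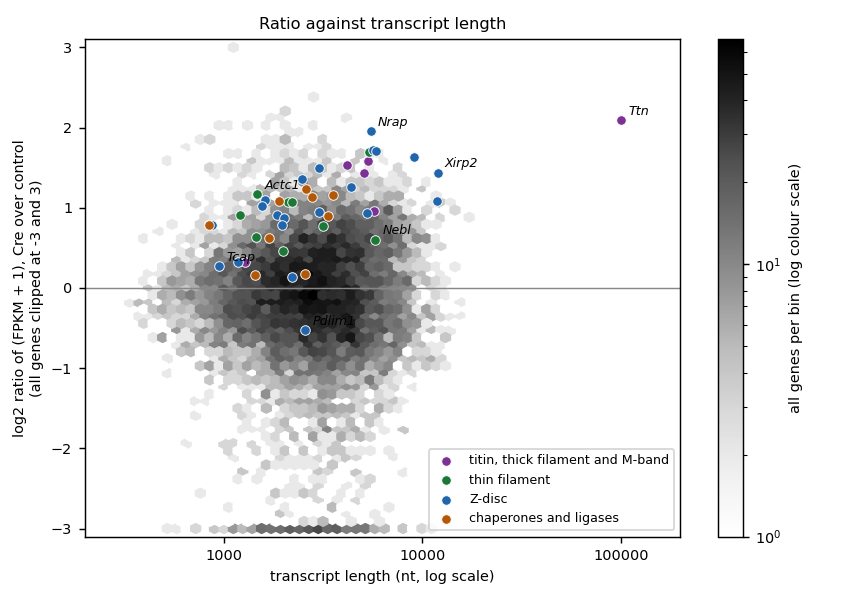
Log2 ratio of FPKM + 1, Cre over control library, against transcript length in nt on a log axis for the 45 measured sarcomere genes (coloured by compartment) over all genes (grey bins, clipped at -3 and 3). Long sarcomere genes such as Ttn and Nrap lie above short ones such as Tcap, while the grey cloud shows no such slope.

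Sarcomeric myosins and troponins, the parts of the sarcomere not in the list, were mostly higher as well. Of 12 measured genes 6 were at least 2-fold higher (50%, against 6.08% of all genes) and 0 lower. All 12 lay above equal expression, with a median of 1.03. Tnni2 and Myh7, fast skeletal troponin I and the slow or ventricular myosin heavy chain, had the highest ratios. Tnni2 had 3.66 FPKM without Cre and 19.9 FPKM with Cre (2.16), and Myh7 had 45.2 and 139.8 FPKM (1.61). The lowest were Tnnt1, slow skeletal troponin T, with 10.1 and 10.3 FPKM (0.02), and Myl4, the atrial essential light chain, with 3310 and 3838 FPKM (0.21). Myh6, the atrial heavy chain, had 628 FPKM in the control, and its comparison was not completed in the authors' deposited table.

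Of 30 further sarcomere and costamere genes 24 were found and 22 measured, with a median of 0.64. Of the 22, 6 were at least 2-fold higher (27.3%, against 6.08% of all genes) and 0 lower. Among the highest ratios was that of Hspb1, a small heat shock protein of many cells, with 89.0 and 237 FPKM (1.40). Actn3, fast skeletal alpha-actinin, and Tmod4, skeletal tropomodulin, were the lowest, at 2.14 and 1.24 FPKM (-0.49) and at 3.28 and 2.26 FPKM (-0.39). Of 18 skeletal muscle markers 10 were found and 8 measured. Of these 2 were higher (Tnni2 and Tnnt3) and 1 was lower (Mylpf), names chosen after their values were seen, and their summed level was 333 FPKM without Cre and 485 FPKM with Cre, most of it from Ckm, which the heart also makes (302 and 438 FPKM). Atp2a1 (0.379 and 0.403 FPKM) and Tnnc2 (0.131 and 0.172 FPKM) were below the minimum, while Casq1 had 9.36 and 15.7 FPKM, Mylpf 9.27 and 0.691 FPKM and Pvalb 2.88 and 1.12 FPKM. Their part in the values of the sarcomere genes was not tested.

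Family members of the sarcomere genes that other cells use lay closer to equal expression than the sarcomere genes did. Of 32 such genes 5 were at least 2-fold higher (15.6%, against 6.08% of all genes). At least 2-fold lower were 2, against 10.4% of all genes. Their median was 0.16, beside -0.07 for all genes. Palld, palladin, and Actg2, a smooth muscle actin, were the highest, at 6.61 and 19.1 FPKM (1.40) and at 10.2 and 28.3 FPKM (1.39). Synpo2 and Lmod1 were also among the 5. Tpm3, a tropomyosin of most cells, had 125 FPKM without Cre and 56.1 FPKM with Cre (-1.15), and Actb, cytoplasmic actin, had 657 and 306 FPKM (-1.10). T cell and cell cycle markers also lay on that side. Smooth muscle and pericyte markers other than Des lay mostly above equal expression (12 of 13), their median being 0.94. At least 2-fold higher were 6 of the 13 (46.2%, against 6.08% of all genes). Smooth muscle also makes Des and Tpm2, and the part of those cells in their values was not tested.

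Levels were also set against those of a relative in 11 family pairs. In the 10 chosen pairs whose relative is on the list of other cells, the quotient was higher in the Cre library. Actn2 had 2.61 times the level of Actn1, the non-muscle alpha-actinin, in the control and 8.68 times in the Cre library. Csrp3 had 5.58 times the level of Csrp1 in the control and 10.3 times in the Cre library, and Unc45b had 2.02 and 5.42 times that of Unc45a. Fhod3 had 1.12 and 4.31 times the level of Fhod1. Tmod1 was weaker than the widely expressed Tmod3 in the control, at 0.726 times its level, and stronger in the Cre library, at 1.66 times. Flnc remained the minor filamin, at 0.0814 and 0.228 times the level of Flna. For Synpo2l and Synpo2 the quotient was 1.31 and 1.41. Fhl1 is itself on the list of further sarcomere and costamere genes, and the quotient of Fhl2 over Fhl1 was 1.48 in the control and 1.39 in the Cre library. These family pairs were chosen after values had been seen, and they do not cover every relative on the list of other cells. Some relatives left out had a higher log2 ratio than their sarcomere gene. Lmod1 had 1.08, beside 0.46 for Lmod2, and Palld had 1.40, beside 0.94 for Mypn. Bag2 had 0.80, beside 0.18 for Bag3, and Actg2 had 1.39, beside 0.64 for Acta1.

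**Figure D4:**
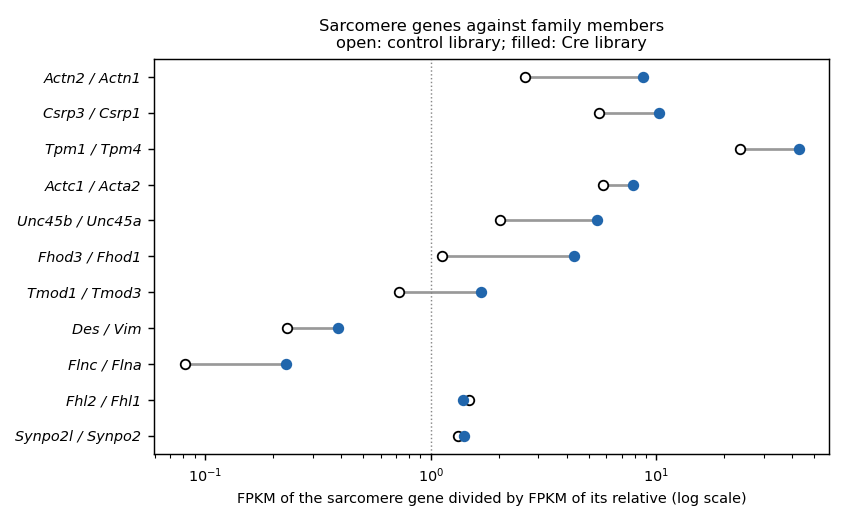
FPKM of a sarcomere gene divided by FPKM of a family member, on a log axis, in the control library (open) and the Cre library (filled), for 11 pairs with 1 library per genotype. The pairs were chosen after values had been seen and leave out relatives with a higher ratio than the sarcomere gene, such as Lmod1 beside Lmod2. The filled circle lies to the right in 10 pairs, for example from 2.61 to 8.68 for Actn2 over Actn1, and to the left for Fhl2 over Fhl1, the pair whose relative is a further sarcomere gene.

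**Figure D5:**
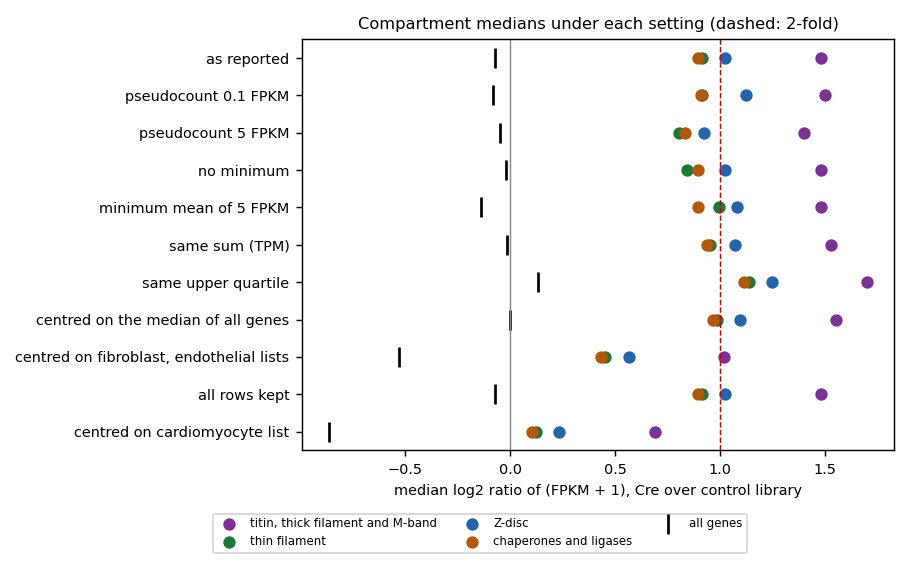
Median log2 ratio of each sarcomere compartment (coloured points) and of all genes (black ticks) under the reported setting and 10 alternatives. Titin and the M-band have the highest median in every row, from 0.69 to 1.70, and both centred settings at the lower end move all 4 compartments to the left together.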

How the data were processed

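The authors deposited a table of FPKM for the control and the Cre library. TopHat, Bowtie, Cufflinks and mm9 are named for it per the submitters' processing notes. Versions, annotation, strand setting and read length are not stated. The unit FPKM was read from the column layout, per the file headers, which is that of Cufflinks output. Beside it the authors gave a log2 fold change, which matched the FPKM within 1.38e-05, and a test score. They also deposited a p-value and a q-value per gene.

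Of 15967 rows 2 were not completed and were left out, as were 12 small-RNA genes. The minimum mean of 1 FPKM left 13407 genes. Log2 ratios used a pseudocount of 1 FPKM, and the calculation was tested on simulated data. Transcript lengths and coding sequences came from GENCODE M21 (99.3% of genes had a length) and promoters from RefSeq on GRCm38.p6. Python 3.11.15, pandas 2.3.3 and Biopython 1.88 were used. Members and gene lists were chosen with earlier results of these data known. The genes named were all members, Arid1a, and for comparison lists the 2 highest and 2 lowest ratios, and a few others named after their values were seen. Proteins were not compared, and some genes of the comparison lists are not reported here. Alternatives were pseudocounts of 0.1 and 5 FPKM, no minimum or one of 5 FPKM, equal sums, equal upper quartiles, 3 centrings, and keeping all rows.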

Additional observations from a re-analysis of the deposited data

How the results depend on the processing

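No paired analysis was possible because each genotype had 1 library. No gene at least 2-fold higher as reported lay below equal expression under any alternative, though other members did under both marker centrings. A pseudocount of 5 FPKM left 17 sarcomere genes at least 2-fold higher, beside 23 as reported, against 1.78% of all genes. It brought the median log2 ratio to 0.91 for all measured sarcomere genes and 0.92 for the Z-disc. It left 3 relatives in other cells at least 2-fold higher. With no minimum the median of the sarcomere genes was 0.99, since Neb enters. The same upper quartile raised the thin filament median to 1.14 and that of chaperones and ligases to 1.11, with 10 other sarcomere genes called. Centring on fibroblast and endothelial markers, which subtracts 0.46, gave 9 sarcomere genes, medians of 0.56 for all of them and 0.56 for the Z-disc, 1 other sarcomere gene and 0 relatives. Centring on cardiomyocyte genes, which subtracts 0.79 and was chosen after seeing the data, gave 2 sarcomere genes higher, 1 lower (Pdlim1), 0 other sarcomere genes and 0 relatives. The medians were then 0.23 for all, 0.69 for titin and the M-band, 0.12 for the thin filament, 0.23 for the Z-disc and 0.10 for chaperones and ligases. Among all genes, 36.9% of 2-fold differences were towards the Cre library as reported, 22.8% with a pseudocount of 5 FPKM, 54.6% with the same upper quartile, and 8.33% and 2.11% with these centrings. The other alternatives (a pseudocount of 0.1, a minimum of 5 FPKM, equal sums, centring on all genes, and all rows kept) left each count of sarcomere genes and relatives within 1.5 times and each median on its side of 2-fold. The count of all genes at least 2-fold higher, 815 as reported, was 1262 (9.41%) with a pseudocount of 0.1, 238 (1.78%) with 5, 449 (4.56%) with a minimum of 5 FPKM and 1304 with the same upper quartile. It was 291 and 120 with the marker centrings. Under all 10 alternatives 30 of the 45 genes lay above equal expression wherever they were measured. Depth is unknown, so no counting error could be given.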

Other observations

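The sarcomere genes are spread over 16 chromosomes. Chromosome 2 held 5 measured genes, of which 4 were at least 2-fold higher (Ttn, Mybpc3, Actc1 and Xirp2). Chromosome 1 also held 5, of which 1 was. On chromosomes 4 and 8 it was 3 of 4 each, on chromosome 6 it was 2 of 4 and on chromosome 3 it was 1 of 4. Over all chromosomes 23 of the 45 were (51.1%), against 6.08% of all genes. Shares of all genes by chromosome were not computed, so no pattern by chromosome can be judged from these small counts. Neighbouring pairs were named after their values were seen. Des and Obsl1 are 118109 bases apart on chromosome 1, with log2 ratios of 0.95 and 0.96. Sorbs2 and Pdlim3 are 57578 bases apart on chromosome 8, with log2 ratios of 1.72 and 1.10.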
